A study of Mus musculus with 7 samples.

Results

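The genes described here are 9 genes of heme biosynthesis, namely 8 enzymes of the pathway (Alas1, Alas2, Alad, Uros, Urod, Cpox, Ppox, and Fech) and the mitochondrial glycine carrier Slc25a38. They were taken as the genes of the count table whose symbol is exactly one of these names. All 9 were found among the 55401 genes of the table, and all 9 were among the 16429 genes that passed the filter on low counts. The set was selected on the difference between the genotypes in these same samples, so its genotype values are given as a description and support nothing by themselves.

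RNA-Seq was performed on knee cartilage of male C57BL/6J mice 2 weeks after DMM (destabilization of the medial meniscus, an operation that leads to osteoarthritis), in order to compare Trpc1-/- mice with WT mice from the same colony. TRPC1 is an ion channel subunit involved in refilling internal calcium stores. All mice of both groups were 10 weeks old at surgery and all RNA came from knees after DMM, so that every difference below is one between operated WT and operated Trpc1-/- joints. The sham-operated left knees were not analysed here. The Trpc1 tm1Lbi allele lacks exon 8 in all tissues, not in chondrocytes alone. Each sample pooled tissue of 2 to 3 mice, and by the Methods subchondral bone was taken along with the cartilage. By their labels, which were used, 4 samples were WT and 3 were Trpc1-/-, and the Methods give the reverse.

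Heme is an iron-containing porphyrin. It is built from glycine and succinyl-CoA by enzymes in the mitochondria and the cytosol, and the last step inserts iron into protoporphyrin IX. Most heme of the body is made by maturing red cells in the bone marrow, which need it for hemoglobin, but nearly every cell makes some for cytochromes and other hemoproteins. The first step, which sets the rate, is carried out by ALAS, and this enzyme has 2 genes. Alas1 is used in all tissues and is repressed by heme, whereas Alas2 is used by erythroid cells, is switched on by the erythroid transcription factor GATA1, and carries an iron-responsive element in the 5′ end of its mRNA, through which iron regulatory proteins hold back its translation when iron is scarce.

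The sequences before the start sites were searched for 2 motifs of erythroid genes, without a test. RefSeq promoter windows of GRCm38.p6 matched 8 of the 9 members with 11 start sites, and Fech had no entry. The 250 bases before each start site were searched on both strands for the spellings of the GATA site, which are AGATAA as the main form, then TGATAA as another, AGATAG as a further one, and TGATAG with both changes, and for CACCC, the core of the sites of Krüppel-like factors. At least one GATA form was present in 26.5% of the 32851 windows in the table, CACCC in 52%, and both in 11.8%. Of the 11 windows of the members, 3 held a GATA form and 6 held CACCC, shares close to those of all windows, and 2 held both. The GATA forms were in Alas2, Cpox, and Uros. The stretches of Alas2 and Cpox are shown because they are the 2 members with both motifs, that of Ppox as an example with neither (Urod had neither as well), and a short stretch of Uros because its 2 GATA matches lie before an internal start site, whereas the window of its outer start site held none. Bases in capitals are the motif matches, which here all lie on the opposite strand and therefore read as their reverse complement. The Alas2 stretch, at chrX:150547167-150547374 on the plus strand, ends where the first annotated exon of GENCODE M21 begins, and its 3 CACCC matches, 40, 35, and 30 bases before the RefSeq start site, fall in that exon and are not printed.
Alas2: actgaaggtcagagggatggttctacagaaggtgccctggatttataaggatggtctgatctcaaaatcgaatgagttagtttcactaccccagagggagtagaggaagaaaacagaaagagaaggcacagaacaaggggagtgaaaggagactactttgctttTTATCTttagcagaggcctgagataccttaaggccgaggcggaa
The Cpox stretch, at chr16:58669958-58670207 on the plus strand, holds overlapping matches to AGATAG and TGATAA and 4 matches to CACCC.
Cpox: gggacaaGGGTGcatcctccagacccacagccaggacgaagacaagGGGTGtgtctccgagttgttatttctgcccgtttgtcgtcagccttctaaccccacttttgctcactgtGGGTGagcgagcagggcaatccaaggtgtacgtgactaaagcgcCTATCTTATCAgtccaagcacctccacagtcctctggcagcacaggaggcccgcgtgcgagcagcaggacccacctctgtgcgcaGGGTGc
The Uros site nearer to the internal start, at chr7:133702551-133702580 on the minus strand, matches TGATAA 68 bases before it. The other matches AGATAG 205 bases before the internal start and is not printed. An annotated Uros exon begins between these 2 matches, so the printed site lies after the start of that exon.
Uros: tctccctcagccTTATCAgtgacagagggc
The Ppox stretch lies at chr1:171281187-171281436 on the minus strand.
Ppox: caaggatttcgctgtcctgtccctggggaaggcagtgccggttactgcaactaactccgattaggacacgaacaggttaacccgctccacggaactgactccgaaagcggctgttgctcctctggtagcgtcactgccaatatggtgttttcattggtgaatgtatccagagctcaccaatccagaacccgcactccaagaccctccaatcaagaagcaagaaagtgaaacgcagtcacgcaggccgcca
The loop of the iron-responsive element, searched as CAGTGN on the sense strand of the first 120 bases, begins at base 96 of the longest annotated Alas2 transcript and lies in its first exon at chrX:150547456-150547485 on the plus strand of GRCm38. It is shown with the loop in capitals.
Alas2 iron-responsive element: ctttggttcgtcctCAGTGCagggcaacag
Letters of this kind occurred by themselves in the first 120 bases of 16.3% of the 58797 protein-coding transcripts of GENCODE M21. These matches describe the windows and were not tested for binding.

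The depth and makeup of the samples were examined first. The counts on genes summed to between 52142451 and 118254070 per sample, and no member had fewer than 1965 counts in any sample. WT replicate 1 stood apart. It had the lowest depth, 19.6% of its counts on the mitochondrial ribosomal RNA gene mt-Rnr2 against 12.3% to 15.4% in the others, the lowest level of 6 neutrophil markers (summed level 4835 CPM, against 11630 to 15755 CPM in the other 6 samples), and the highest level of 4 muscle markers. CPM are counts on genes scaled to a common library size by TMM. Trpc1 itself lay between 4.33 and 4.83 CPM in WT and between 3.04 and 3.79 CPM in Trpc1-/- samples, with counts that cover the whole gene and do not check the deleted exon. The cartilage label was checked with 8 chondrocyte markers, which were all detected, with a summed level of 4428 to 4728 CPM in WT and 2546 to 4849 CPM in Trpc1-/- samples. In every sample, these were exceeded by the 16 erythroid markers tested, at 18994 to 35613 CPM in WT and 41190 to 56452 CPM in Trpc1-/- samples, mostly globin RNA. Erythroid RNA was thus present in all samples, and the groups did not overlap in this sum.

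Of the 9 genes, 8 were higher in Trpc1-/- than in WT samples and 1 was lower, with a median log2 fold change (logFC, Trpc1-/- over WT) of 0.36 against −0.0088 over all genes tested. A logFC above 0 was found for 48.1% of all genes. In 6 genes (Alas2, Alad, Uros, Cpox, Fech, and Slc25a38), every Trpc1-/- sample lay above every WT sample, a pattern seen in 7.15% of all genes tested, whereas the opposite pattern was seen in 6.42% of all genes and in 0 of the members. The quasi-likelihood test of edgeR called 0 of the 9 genes after Benjamini-Hochberg adjustment, as it did for 0% of all genes, and 6 had an unadjusted P under 0.05, against 10% of all genes. DESeq2, the method of the study, called 3 of them, namely Alas2, Alad, and Fech, all higher, against 1.79% of all genes called and 0.962% called higher. With one sample left out, DESeq2 called 5 (without WT replicate 1), 1 (without WT replicate 2), 2 (without WT replicate 3), 1 (without WT replicate 4), 1 (without Trpc1-/- replicate 1), 6 (without Trpc1-/- replicate 2), and 1 (without Trpc1-/- replicate 3). Fech was called in all 7 of these fits. DESeq2 did not call it with a replicate block or on the samples with the lower label numbers, both described below. Since the set was chosen for this contrast, nothing is read from these shares. The samples of a group are separate pools of animals.

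**Figure D1:**
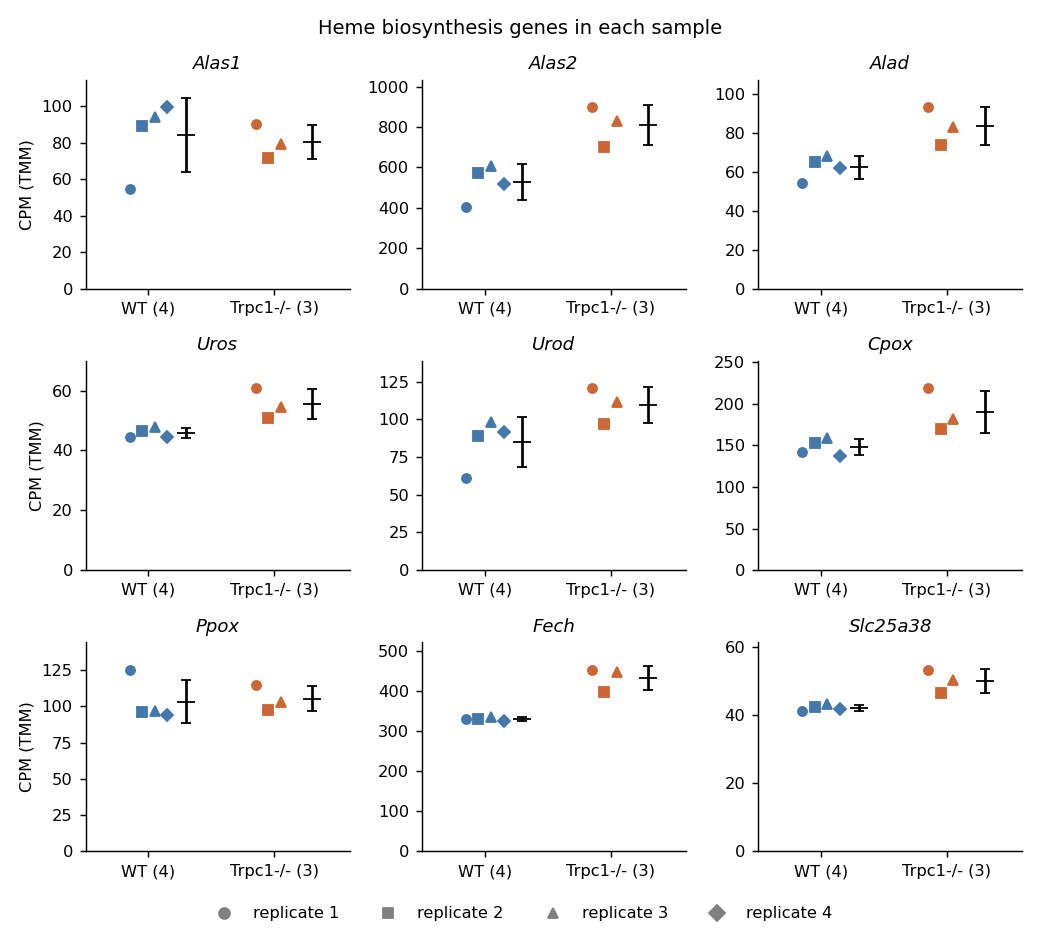
Level of each of the 9 genes in CPM (y axis, from 0) in the 4 WT and 3 Trpc1-/- samples, 1 point per sample with replicates 1 to 4 as circle, square, triangle, and diamond, and mean ± SD beside them. In Alas2, Alad, Uros, Cpox, Fech, and Slc25a38 the 3 Trpc1-/- points lie above all 4 WT points, whereas the groups overlap in Alas1, Urod, and Ppox.

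The first step showed the widest contrast among the members, because its 2 genes did not move together. Alas2 (ENSMUSG00000025270, chrX:150547375-150570638, plus strand) was at 405, 572, 608, and 520 CPM in WT replicates 1 to 4 and at 899, 703, and 828 CPM in Trpc1-/- replicates 1 to 3. All Trpc1-/- samples exceeded the highest WT sample, and the logFC of 0.62 (SE 0.16), a 1.54-fold higher level, was the largest of the 9. Alas1 (ENSMUSG00000032786, chr9:106233455-106248654, minus strand), which makes the same enzyme activity in all tissues, was at 54.7, 89.2, 94.1, and 99.6 CPM in WT and at 90.3, 71.6, and 79.4 CPM in Trpc1-/- samples. The groups overlapped, and the 3 Trpc1-/- samples lay within the range of the WT samples. Its logFC was −0.07 (SE 0.20), and −0.23 without WT replicate 1, its lowest sample. Alas1 overlaps the antisense gene 4930500F10Rik, and the libraries were stranded and aligned with their strand.

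Levels of different genes were compared per kb of exon. In WT samples, the level of Alas2 was 258 ± 43.5 CPM per kb and that of Alas1 21.3 ± 5.12 CPM per kb (SD, n = 4). In Trpc1-/- samples, these were 398 ± 48.9 and 20.3 ± 2.37 CPM per kb (SD, n = 3). Alas2 thus accounted for most ALAS RNA in every sample. Its share of the sum of both was 93.5%, 92.6%, 92.6%, and 91.0% in WT replicates 1 to 4 and 95.1%, 95.0%, and 95.3% in Trpc1-/- replicates 1 to 3, a difference of 2.70 percentage points. The groups did not overlap, and the spread of the share was 1.03 points in WT (SD, n = 4) and 0.144 points in Trpc1-/- samples (SD, n = 3). Within a sample, WT replicate 1 was low in both genes and had the highest share of the WT samples.

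**Figure D2:**
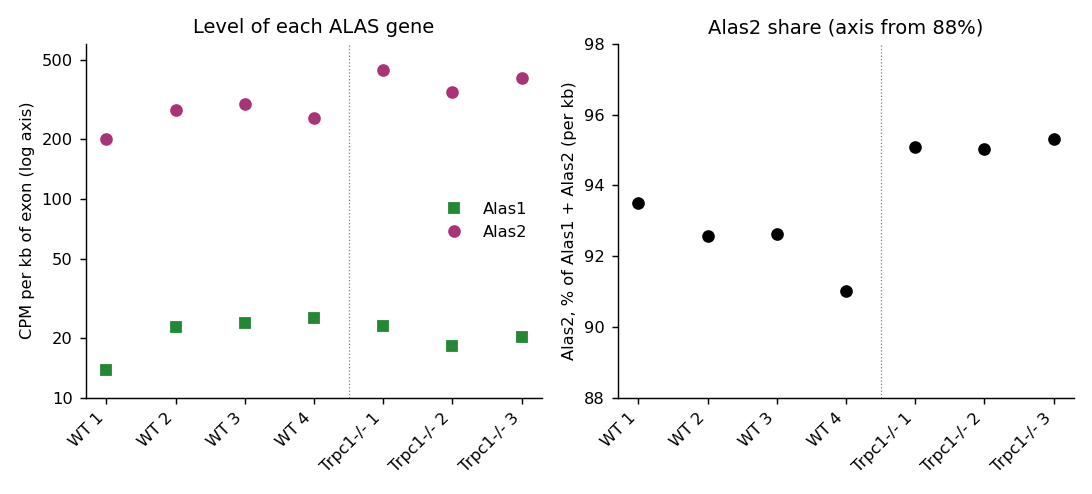
Left, Alas1 (squares) and Alas2 (circles) in CPM per kb of exon on a log axis in each sample, and right, the share of Alas2 in the sum of both, in percent, on an axis that starts at 88%. Alas2 lies above Alas1 in all 7 samples, and its share is 91.0% to 93.5% in WT and 95.0% to 95.3% in Trpc1-/- samples.

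Alad and Uros act in the cytosol. Alad (ENSMUSG00000028393, chr4:62509169-62519918, minus strand) encodes the dehydratase that joins a pair of aminolevulinate molecules to porphobilinogen. It was at 54.1, 65.2, 67.9, and 62.0 CPM in WT and at 93.2, 73.7, and 82.8 CPM in Trpc1-/- samples. The groups did not overlap, and the logFC was 0.42 (SE 0.11). Uros (ENSMUSG00000030979, chr7:133686243-133710072, minus strand) encodes the synthase that closes the ring to uroporphyrinogen III. It was at 44.6, 46.5, 47.9, and 44.6 CPM in WT and at 60.8, 50.9, and 54.5 CPM in Trpc1-/- samples, with a logFC of 0.27 (SE 0.078). Here the WT samples were close together, with an SD of 3.48% of their mean. Uros overlaps Bccip, Alas2 overlaps Apex2, and Cpox overlaps Gpr15, each on the other strand.

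Urod (ENSMUSG00000028684, chr4:116989965-116994413, minus strand) encodes the decarboxylase that yields coproporphyrinogen III, the last cytosolic step. It was at 60.8, 88.7, 98.3, and 91.4 CPM in WT and at 121, 96.8, and 111 CPM in Trpc1-/- samples. Of all samples, only Trpc1-/- replicate 2 and WT replicate 3 crossed, and the logFC was 0.37 (SE 0.17) with all samples and 0.24 without WT replicate 1, which was far below the other WT samples in this gene as in Alas1.

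The next steps return to the mitochondria. Cpox (ENSMUSG00000022742, chr16:58670292-58717636, plus strand) encodes the oxidase that makes protoporphyrinogen IX. It was at 143, 153, 159, and 138 CPM in WT and at 219, 170, and 182 CPM in Trpc1-/- samples, with a logFC of 0.36 (SE 0.11) and no overlap. Ppox (ENSMUSG00000062729, chr1:171275990-171281186, minus strand), which oxidizes this product to protoporphyrin IX, differed from its neighbours in the pathway. It was at 125, 96.2, 96.5, and 94.1 CPM in WT and at 115, 97.7, and 103 CPM in Trpc1-/- samples. WT replicate 1 was the highest of all 7 samples in Ppox, whereas it was the lowest in Alas1, Alas2, Alad, Urod, and Slc25a38. The logFC of Ppox was 0.03 (SE 0.12) with all samples and 0.13 without WT replicate 1. Ppox overlaps B4galt3 on the opposite strand.

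Fech (ENSMUSG00000024588, chr18:64452914-64490251, minus strand) encodes ferrochelatase, which inserts the iron. It was at 330.3, 330.6, 336, and 326 CPM in WT and at 454, 398, and 449 CPM in Trpc1-/- samples. The WT samples differed by an SD of only 1.31% of their mean, the least of the 9 genes, and the logFC of 0.39 (SE 0.087) ran from 0.36 to 0.46 when any one sample was left out. Slc25a38 (ENSMUSG00000032519, chr9:120110374-120124504, plus strand) brings glycine into the mitochondria for the first step. It was at 41.4, 42.4, 43.5, and 41.8 CPM in WT and at 53.4, 46.5, and 50.3 CPM in Trpc1-/- samples, with a logFC of 0.25 (SE 0.068). WT samples were again close together, with an SD of 2.13% of their mean, and the groups did not overlap. Slc25a38 and Alas1 lie on the same chromosome as Trpc1, 24.36 and 10.48 Mb from it. Whether this position has a part in their values was not tested. Fech also stands in the study's own list of its most changed genes, and it is no independent entry here.

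**Figure D3:**
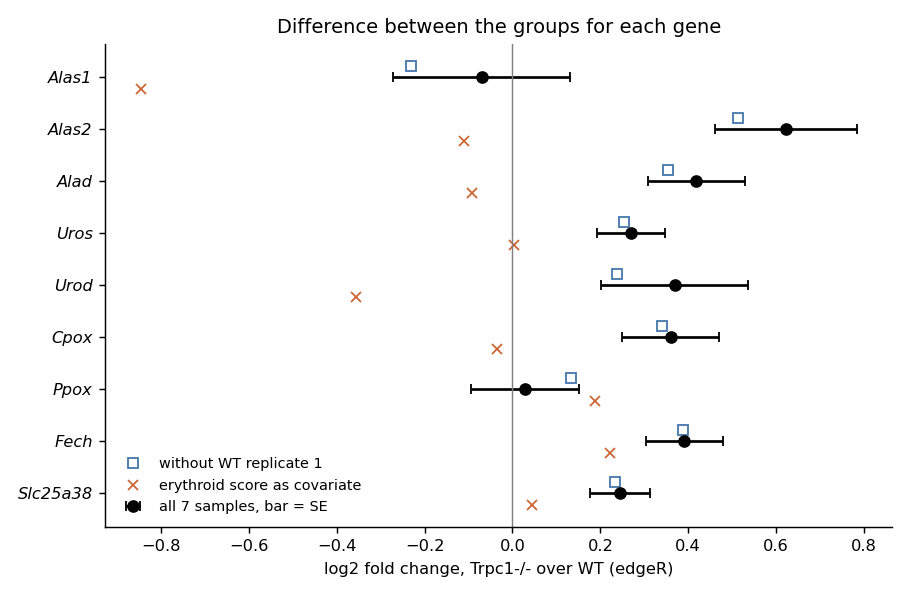
LogFC between Trpc1-/- and WT samples for each gene (x axis) with all 7 samples (filled circle, bar = SE), without WT replicate 1 (open square), and with the erythroid score as a covariate (cross). Without WT replicate 1 the values of 8 genes are lower and that of Ppox is higher, and with the covariate 4 of the 9 values are above 0.

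By level per kb in WT samples, Alas2 ranked at the 98.9th percentile of the 16415 tested genes with an exon length. Urod (57.0 ± 11.1 CPM per kb), Ppox (56.6 ± 8.14), Alad (49.0 ± 4.72), Cpox (47.8 ± 3.13), and Fech (46.0 ± 0.604) followed (SD, n = 4 each), with WT ranges that overlapped between each neighbouring pair. Slc25a38 (23.6 ± 0.503 CPM per kb), Alas1 (21.3 ± 5.12), and Uros (19.3 ± 0.671) formed a lower group, whose neighbours overlapped as well, and Fech lay above Slc25a38 in all 7 samples. The order therefore had breaks only between Alas2 and Urod and between Fech and Slc25a38. Of the summed level per kb of the 9 genes, Alas2 took 39.9% to 46.9% in WT and 49.5% to 51.1% in Trpc1-/- samples, and the share of Ppox was 8.31% to 13.8% and 7.10% to 7.69%. Alad kept nearly the same share in all samples, 8.20% to 8.54%. These levels, their order, and the shares depend on the exon lengths used. With the exons of all annotated transcripts, the length of Ppox is 4.52 kb instead of 1.82 kb. That of Alas2 is 2.40 kb instead of 2.04 kb. The order was not examined with these lengths.

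Within the Trpc1-/- group, the samples kept one order throughout. Replicate 1 was the highest and replicate 2 the lowest Trpc1-/- sample in all 9 genes, Alas1 and Ppox included. The erythroid score, which is the mean log2 CPM of the 16 erythroid markers, had this order too, with 9.05, 8.77, and 8.96 in Trpc1-/- replicates 1 to 3. The mean log2 CPM of the 8 chondrocyte markers ran the other way, with 6.67, 7.38, and 6.79. Among WT samples, replicate 3 was the highest in 7 of the 9 genes, and it also had the highest erythroid score, 8.59, against 8.32, 8.57, and 8.45 in WT replicates 1, 2, and 4. In bulk samples, fewer or more cells of a type and less or more RNA per cell cannot be told apart.

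Erythroid markers were higher in Trpc1-/- samples as the heme genes were. All 16 had a logFC above 0, with a median of 0.42, and 10 were higher without overlap, against 7.15% of all genes. DESeq2 called 2 of them, and edgeR called 0, with 11 at an unadjusted P under 0.05. The α-globin genes Hba-a1 and Hba-a2 had a logFC of 0.72 and 0.75, and the β-globin genes Hbb-bs and Hbb-bt one of 0.77 each. Each pair of globin genes is nearly identical in sequence, so that the split of reads within a pair is uncertain. Of these 4 genes, only Hbb-bt was called by DESeq2 (adjusted P = 0.0347). For Epb42, a protein of the red cell membrane skeleton, the logFC was 0.38 (SE 0.12) and the adjusted P was 0.417 by edgeR and 0.0916 by DESeq2.

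In some lists of markers of other cells, all markers had one direction. All 8 chondrocyte markers were lower in Trpc1-/- samples (median logFC −0.42), and so were all 6 osteoblast markers (median logFC −0.28), whose summed level was 7290 to 13547 CPM in WT and 5755 to 10021 CPM in Trpc1-/- samples. All 6 macrophage markers had a logFC above 0 (median 0.28), though that of Csf1r was only 0.0007. Their summed level was 462 to 721 CPM in WT and 700.3 to 811 CPM in Trpc1-/- samples. The 6 neutrophil and 4 muscle markers, in which WT replicate 1 stood apart, all had a logFC above 0 too (median 0.20 and 0.70). The neutrophil sum was 4835 CPM in WT replicate 1 and 12297 to 15755 CPM in the other WT samples. In Trpc1-/- samples it was 11630 to 15364 CPM. Every marker of these lists was detected, and edgeR and DESeq2 called 0 of them, with 3 at an unadjusted P under 0.05 in edgeR, 1 each among the chondrocyte, osteoblast, and macrophage markers. The groups did not overlap in 3 of these markers, named after their values were seen, namely Comp (logFC −0.42), Vcam1 (0.41), and Cd163 (0.42). Over all genes tested, 7.15% were higher and 6.42% lower without overlap, and nothing is read from the count of 3. Other lists were mixed. Of osteoclast markers, 3 were higher and 2 lower, and of endothelial markers 1 was higher and 3 lower. Of megakaryocyte and of B-cell markers, 3 each were higher and 1 each lower. Among these, Cd79a (logFC 0.43) and Cdh5 (−0.098) did not overlap. The part of these cells in the values of the heme genes was not tested.

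The heme genes were then set against the erythroid markers. Relative to the erythroid score, the mean of Alas2 in Trpc1-/- samples was 0.19 higher on the log2 scale than in WT. The same value was −0.03 for Alad, −0.05 for Fech, −0.06 for Urod, and −0.09 for Cpox, each smaller in size than its SD among the WT samples except that of Cpox. It was −0.18 for Uros, −0.20 for Slc25a38, −0.41 for Ppox, and −0.48 for Alas1. With the erythroid score as a covariate in edgeR, the logFC was above 0 in 4 of the 9 genes and had a median of −0.04. In that fit it was −0.84 for Alas1, −0.36 for Urod, −0.11 for Alas2, and 0.22 for Fech. The score differed between the groups without overlap, so that its part and that of the genotype cannot be told apart in these samples.

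**Figure D4:**
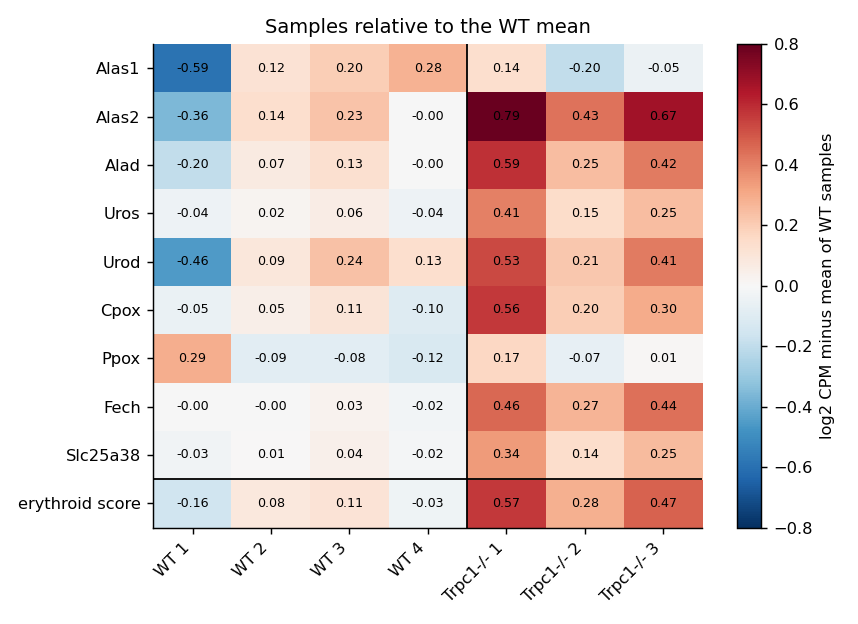
Log2 CPM of each gene in each sample minus the mean of the 4 WT samples (colour and printed value), with the erythroid score in the lowest row. Trpc1-/- replicate 1 has the highest value of its group in every row and replicate 2 the lowest, and WT replicate 1 is low in Alas1, Alas2, and Urod but high in Ppox.

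The genes whose profile over the 7 samples was most like that of Alas2, by Pearson correlation of log2 CPM, included Cd82, a tetraspanin (r = 0.997), Cdr2 (r = 0.997), Trim10, one of the erythroid markers (r = 0.996), and Bpgm, the red cell mutase that makes the allosteric effector of hemoglobin (r = 0.995). Bpgm had the steepest contrast of the 4, from 162, 227, 240, and 199 CPM in WT to 369, 288, and 363 CPM in Trpc1-/- samples. The profile of Alas1 was most like those of other genes. Its nearest were Esyt1, a tether between membranes (r = 0.997), Ass1, an enzyme of arginine synthesis (r = 0.996), the lysosomal mannosidase Man2b1 (r = 0.995), the immune checkpoint receptor Vsir (r = 0.995), and the leukocyte integrin chain Itgb7 (r = 0.994). All 5 were lowest in WT replicate 1, and without this sample r was between 0.984 and 0.994. These correlations share the samples and their depth and are given as a description over n = 7.

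The mitochondrial partners of the pathway are genes that supply glycine, succinyl-CoA, iron, and iron-sulfur clusters, move porphyrins, or handle ALAS protein. Of 20 tested, 17 were higher and 3 lower in Trpc1-/- samples. Their median logFC was 0.23, and 11 were higher without overlap, against 7.15% of all genes. DESeq2 called 2, both higher, and left-out samples moved this to 4 (without WT replicate 1), 1 (without WT replicate 2, WT replicate 4, or Trpc1-/- replicate 1), and 0 (without Trpc1-/- replicate 3). edgeR called 0, with 8 at an unadjusted P under 0.05. Isca1, which assembles iron-sulfur clusters, was at 109, 112, 115, and 106 CPM in WT and at 166, 136, and 158 CPM in Trpc1-/- samples, and its logFC of 0.48 (SE 0.090) had an adjusted P of 0.381 by edgeR and of 0.000227 by DESeq2. It belongs to the study's list of most changed genes. For Glrx5, a glutaredoxin of cluster assembly, the logFC was 0.37 (SE 0.089) and the adjusted P by DESeq2 was 0.0292. The scaffold of cluster assembly, Iscu, was not called, with a logFC of 0.32. Slc25a39, the mitochondrial glutathione carrier, had a logFC of 0.36, and Fam210b, a mitochondrial protein of erythroid heme synthesis, one of 0.34.

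Genes of heme breakdown, export, and binding were split in direction. Of the 11 tested, 8 were higher and 3 lower, with a median logFC of 0.17. Without overlap, 5 were higher and 2 lower, against 7.15% and 6.42% of all genes. DESeq2 called 4 of the 11, 3 higher and 1 lower, and between 1 and 6 with one sample left out (6 without WT replicate 1, 3 without WT replicate 2, 3, or 4, 1 without Trpc1-/- replicate 1 or 3, and 5 without Trpc1-/- replicate 2), whereas edgeR called 0, with 8 at an unadjusted P under 0.05. Hmox1, the inducible heme oxygenase that opens the heme ring, was at 47.4, 78.5, 84.1, and 59.1 CPM in WT and at 122, 101, and 136 CPM in Trpc1-/- samples. Its logFC of 0.83 (SE 0.21), with an adjusted P of 0.395 by edgeR and of 0.0154 by DESeq2, exceeded that of all 9 synthesis genes. For Blvrb, a biliverdin reductase, the logFC was 0.53 (SE 0.17) and the adjusted P by DESeq2 was 0.12. Blvra, the other biliverdin reductase, lies outside the rule for named genes. Its groups overlapped, with a logFC of 0.17 (SE 0.17). Hebp1, a heme-binding protein, had a logFC of 0.46 (adjusted P = 0.0027 in DESeq2), Abcg2, an exporter of porphyrins, one of 0.38 (adjusted P = 4.16e-06 in DESeq2), and the heme transporter Slc48a1 one of 0.26 (adjusted P = 0.292 in DESeq2). Hebp1 and Abcg2 also stand in the study's list. Lower values were found for Hebp2, with a logFC of −0.55 (adjusted P = 0.0427 in DESeq2), and the folate and heme carrier Slc46a1, with −0.54 (adjusted P = 0.0892 in DESeq2), both at under 4 CPM in all samples.

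Regulators and users of heme were examined in the same way. Of 12 regulators of heme synthesis, 9 were higher and 3 lower, with a median logFC of 0.08. Without overlap, 2 were higher, against 7.15% of all genes. Tal1, an erythroid transcription factor that acts with GATA1, was the 1 gene of this list called by DESeq2 (logFC 0.34, SE 0.093), with an adjusted P of 0.0412 by DESeq2 and of 0.396 by edgeR. DESeq2 also called 1 regulator without WT replicate 1 or Trpc1-/- replicate 2, and 0 without any of the other 5 samples. Eif2ak1, the heme-regulated kinase that holds back globin translation when heme is short, had a logFC of 0.24 (adjusted P = 0.12 in DESeq2). edgeR called 0 of the regulators, with 3 at an unadjusted P under 0.05. The list of hemoproteins also holds assembly factors and other related proteins. Of its 24 tested genes, 17 were higher and 7 lower, with a median logFC of 0.09. Without overlap, 3 were higher, against 7.15% of all genes, and nothing is read from this count. edgeR called 0 (4 at an unadjusted P under 0.05). DESeq2 called 0 as well, but 3 without WT replicate 1 and 1 without Trpc1-/- replicate 2. The 3 without overlap were catalase (Cat, logFC 0.41), cytochrome c (Cycs, 0.34), and Tspo2, an erythroid membrane protein (0.31).

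**Figure D5:**
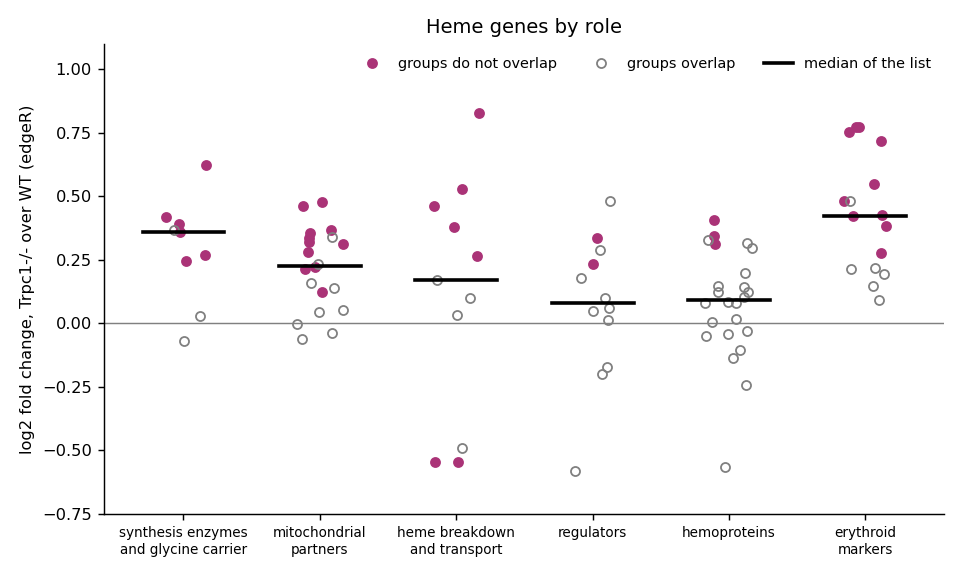
LogFC between Trpc1-/- and WT samples (y axis) of each tested gene in 6 lists, 1 point per gene, filled where the groups do not overlap, with the list's median as a bar. The medians are 0.36 for the synthesis genes, 0.23 for the mitochondrial partners, 0.17 for breakdown and transport, 0.08 for regulators, 0.09 for hemoproteins, and 0.42 for the erythroid markers.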

How the data were processed

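RNA-Seq was performed by the authors on 7 samples, each pooled from 2 to 3 mice. Per the labels and Methods, ribosomal RNA was depleted, stranded libraries were trimmed (cutadapt 2.5) and aligned to GRCm38 (HISAT2 2.1.0), and StringTie 2.0.3 and its script gave the deposited estimated counts per gene, which were not normalized. They were whole numbers, so rounding left them unchanged. Reads that map to several genes were assigned before this point.

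The filter kept genes above 1 CPM in 2 or more samples. In R 4.3.3, counts were TMM-normalized and tested with edgeR 4.0.16 (quasi-likelihood test, genotype alone, Benjamini-Hochberg adjustment over 16429 genes, threshold 0.05). DESeq2 1.42.0 and limma-voom (limma 3.58.1), 2 other normalizations, 2 other filters, and a replicate block were tried. So were the erythroid score as a covariate and each sample left out. A further fit kept only WT replicates 1 and 2 and all Trpc1-/- samples, whose labels hold the lower numbers. What the numbers in the labels stand for is not stated. All fits kept the same genes except those with other filters. Exon lengths (union over basic protein-coding transcripts) and positions came from GENCODE M21, promoters from RefSeq. The log2 CPM of scores and correlations used a prior count of 1.

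The members and lists were chosen with earlier results of these data known. Named genes were all members, Trpc1, in each list the genes called by DESeq2 and the 4 others with the largest logFC without overlap, fixed erythroid markers, and the 5 genes most like Alas2 and Alas1. Some genes covered by this rule are not reported here.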

Additional observations from a re-analysis of the deposited data

Results flagged for a closer look

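In each group of 4 WT samples, the distance of the lowest or highest sample from its nearest neighbour was compared with the whole range for 34 values named in the text, and 2 stood apart by Dixon's criterion, where chance gives about 1 in 20. Ppox was at 125 CPM in WT replicate 1, against 96.5 CPM in the next WT sample, a gap of 0.924 of the range. Glrx5 was at 53.0 CPM in WT replicate 3, against 49.4 CPM in the next, a gap of 0.887 of the range.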

How the results depend on the processing

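The 6 non-overlapping members were 6 or 7 in all alternatives. This count is taken from normalized CPM without the model, so limma-voom, the covariate, and the block could not change it by themselves. Leaving out samples can hardly lower it. The logFC of Alas2, Alad, Uros, Urod, Cpox, Fech, and Slc25a38 stayed above 0 in all alternatives, except those of Alas2, Alad, Urod, and Cpox with the erythroid score as a covariate. DESeq2 called 3 members, 2 mitochondrial partners, 4 genes of heme breakdown and transport, and 1 regulator, where edgeR, limma-voom, and edgeR with other normalizations or filters called 0 of each. DESeq2 on the samples with the lower label numbers (WT replicates 1 and 2 and the 3 Trpc1-/- samples) was added after seeing the data. It called 1 member, which was Alas2 and not Fech, and 1 gene of heme breakdown and transport. With one sample left out, edgeR and DESeq2 together called 0 to 6 members, 0 to 4 partners, 0 to 6 breakdown and transport genes, 0 to 1 regulators, and 0 to 3 hemoproteins. With the erythroid score as a covariate, 4 members were higher, and the median logFC was −0.036, with −0.11 for Alas2, −0.092 for Alad, −0.36 for Urod, and −0.036 for Cpox. The near-zero values of Alas1 and Ppox changed sign. With one sample left out, they ran from −0.23 to 0.023 for Alas1 and from −0.038 to 0.14 for Ppox. Among the samples with the lower label numbers they were 0.16 and −0.075 with edgeR and 0.17 and −0.071 with DESeq2. Same-numbered samples had correlations of deviations between −0.35 and −0.044. These gave no sign of a pairing by replicate number, but so few values, centred within each small group, cannot exclude one. With the replicate block, which also leaves out WT replicate 4 because no Trpc1-/- sample has its number, edgeR and DESeq2 called 0 members (0 and 1 without WT replicate 4 and with no block), and Alas1 and Ppox were at 0.05 and −0.0041 with edgeR and 0.053 and −0.0012 with DESeq2. The difference in Alas2 share of ALAS RNA was 4.68 points from counts without length correction and 2.23 to 3.06 points with one sample left out. With the exons of all annotated transcripts, an alternative that was not planned, it was 2.11 points. The cause of these changes was not tested. The lowest count of a member in any sample was 1965, in Slc25a38.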

Other observations

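The following genes lie outside the rule for named genes and were chosen after their values were seen. In Gata1 and Klf1, which encode erythroid transcription factors that act on many heme genes, the groups overlapped. Gata1 was at 26.8, 38.9, 42.3, and 37.9 CPM in WT and at 52.9, 39.6, and 41.4 CPM in Trpc1-/- samples, and Klf1 at 46.5, 63.4, 67.0, and 51.0 CPM and at 103, 63.2, and 72.1 CPM, with a logFC of 0.29 (SE 0.17) and 0.48 (SE 0.20). The iron regulatory proteins that bind the element of Alas2 mRNA are encoded by Ireb2 and Aco1, with a logFC of 0.05 (SE 0.23) and 0.10 (SE 0.094).

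Some erythroid genes had the pattern of Ppox, with the highest WT level in replicate 1. These were the mitochondrial iron importer Slc25a37, at 577 CPM against 456 to 489 CPM in the other WT samples, the glycine transporter Slc6a9, at 51.7 CPM against 33.9 to 37.4 CPM, and the membrane skeleton genes Sptb, at 428 CPM against 290 to 320 CPM, and Ank1, at 350.2 CPM against 203 to 240 CPM. Their Trpc1-/- samples lay between 566 and 604 CPM, 37.7 and 41.1 CPM, 369 and 421 CPM, and 276 and 299.5 CPM.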
